A study of Homo sapiens with 3 samples.

Results

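The ATP-binding cassette (ABC) family holds membrane pumps and a few soluble proteins that share an ATP-binding domain. It was followed through the 42 genes whose symbol runs from ABCA to ABCG with a number and which had a probe set naming that gene alone, out of 18132 genes named in this way on the array. Where several probe sets named a gene, the one with the highest mean stood for it, and 26 of the 42 had a mean at or above log2 5.27, the 40th percentile of all probe set means, which served as the filter for dim genes. These values chose the probe sets and the bright and dim members, so they are given as a description. The cells were KYSE150, an established human oesophageal squamous carcinoma line grown with fetal calf serum. They had been transfected with empty vector (Control), with pcDNA3.1 LOXL2 WT or with pcDNA3.1 LOXL2 delta72, and RNA was taken 48 h later. All 3 cultures were thus transfected cells of the same line, and each condition had 1 array, so the values have no replicate spread and no test was made. The labels do not say what delta72 removes, and the share of cells that took up a plasmid is not given in the sources used here. LOXL2 is a secreted lysyl oxidase.

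ABC transporters use ATP to move lipids, sterols, peptides, conjugated drugs, haem precursors or fatty acyl compounds across membranes. Subfamilies A and G are known mainly for lipids and sterols, and B for peptides, drugs and mitochondrial cargo. C is known for organic anions and conjugates, and D for peroxisomal import and lysosomal export. Members of E and F have no membrane-spanning part and act on the ribosome. In squamous carcinoma the family is best known for ABCB1, ABCC1 and ABCG2, which pump drugs out of the cell.

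Read from brightest probe sets, the family split into 1 gene far above control and 25 bright genes that differed from it by at most 1.32-fold. ABCA13 was 2.74-fold higher with LOXL2 WT and 2.67-fold higher with LOXL2 delta72, folds taken over a Control reading of log2 4.80 that lay below the filter and so not well fixed in size. Its mean, from 1 probe set, passed the filter only through the LOXL2 arrays, so its place among the bright genes is not independent of its difference. ABCC4 and the peroxisomal gene ABCD3 were 1.32-fold and 1.31-fold higher with WT, and all their probe sets above the filter pointed the same way. The dimmer probe sets of ABCD3 differed by 0.34 to 0.78 on the log2 scale with WT, the upper end past 1.5-fold. The soluble members ABCE1, ABCF1, ABCF2 and ABCF3 were 1.14-fold to 1.24-fold higher with WT from their brightest probe sets. Of the 4 bright probe sets of ABCF3, 2 were lower with WT. The drug pumps ABCB1 and ABCC1 lay within 1.10-fold of control on both LOXL2 arrays, ABCB1 by 1 bright probe set of 4. ABCG2 was 1.13-fold higher with WT and 1.08-fold with delta72, but its 2 bright probe sets pointed in opposite directions.

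The sequences upstream of the start of 6 members are printed because these genes carry the values described first: the 5 that were at least 1.2-fold higher with WT, and ABCF2, the next of the soluble members by size. They come from RefSeq (GRCh38.p14) and cover the 250 bases before the annotated start, read 5′ to 3′ on the strand of the gene. Capitals mark matches to 8 motifs searched on both strands. These were the E-box CACGTG, the GC box GGGCGG, the CCAAT box CCAAT, the TATA box TATAAA, the antioxidant response element core TGACNNNGC, the cyclic AMP response element TGACGTCA, the C/EBP-ATF element TGATGNAA, and the ER stress element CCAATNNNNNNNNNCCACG, which holds a CCAAT box. The stretches lie at chr7:48171208-48171457 (plus strand), chr10:99782390-99782639 (plus strand), chr13:95301452-95301701 (minus strand), chr1:94418139-94418388 (plus strand), chr4:145098061-145098310 (plus strand) and chr7:151227206-151227455 (minus strand).
ABCA13: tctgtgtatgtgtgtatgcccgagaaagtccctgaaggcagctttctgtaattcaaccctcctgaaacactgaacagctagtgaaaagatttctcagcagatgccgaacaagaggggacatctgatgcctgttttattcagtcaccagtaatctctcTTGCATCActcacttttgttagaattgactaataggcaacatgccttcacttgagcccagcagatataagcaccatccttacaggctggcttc
ABCC2: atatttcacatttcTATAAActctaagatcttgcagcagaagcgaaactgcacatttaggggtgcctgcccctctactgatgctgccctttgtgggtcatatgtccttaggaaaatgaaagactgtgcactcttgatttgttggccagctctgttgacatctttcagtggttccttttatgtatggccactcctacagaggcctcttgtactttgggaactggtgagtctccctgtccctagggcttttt
ABCC4: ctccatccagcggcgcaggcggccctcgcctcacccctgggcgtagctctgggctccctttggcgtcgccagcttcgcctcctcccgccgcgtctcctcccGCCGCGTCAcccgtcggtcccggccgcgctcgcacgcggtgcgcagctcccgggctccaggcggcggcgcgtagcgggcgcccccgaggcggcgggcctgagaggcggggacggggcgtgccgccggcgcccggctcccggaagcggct
ABCD3: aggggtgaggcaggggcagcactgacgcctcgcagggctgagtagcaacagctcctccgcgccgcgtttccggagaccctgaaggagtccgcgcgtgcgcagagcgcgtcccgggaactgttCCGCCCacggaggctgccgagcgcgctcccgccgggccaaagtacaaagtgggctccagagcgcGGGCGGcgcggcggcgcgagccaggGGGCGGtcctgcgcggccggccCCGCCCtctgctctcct
ABCE1: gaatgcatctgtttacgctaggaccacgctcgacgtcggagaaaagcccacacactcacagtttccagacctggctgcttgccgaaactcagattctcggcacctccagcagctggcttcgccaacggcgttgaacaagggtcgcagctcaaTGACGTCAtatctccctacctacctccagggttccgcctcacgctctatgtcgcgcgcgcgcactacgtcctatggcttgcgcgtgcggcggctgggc
ABCF2: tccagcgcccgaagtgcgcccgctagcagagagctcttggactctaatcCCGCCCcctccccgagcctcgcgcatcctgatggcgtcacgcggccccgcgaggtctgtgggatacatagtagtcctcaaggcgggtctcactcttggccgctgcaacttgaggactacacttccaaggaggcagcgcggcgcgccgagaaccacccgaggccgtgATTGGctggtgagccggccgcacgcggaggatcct

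The 6 stretches had little in common. ABCA13 and ABCC2 were poor in G and C, at 44.8% and 45.6% with 2 and 1 CG pairs, whereas ABCC4 reached 80.4% with 42 CG pairs and ABCD3 74.4% with 34. The middle 50% of the 35116 human promoter stretches of this length lay between 46.4% and 68.0%. The stretch of ABCA13 held the C/EBP-ATF element, which 3.14% of all stretches hold, and no other family gene among the 33 with a listed promoter held it. A count of 1 among 33 genes is near that share, so the match does not set ABCA13 apart. ABCE1 held the cyclic AMP response element, found in 1.65% of all stretches and in no other family gene. ABCD3 held 4 GC boxes and ABCF2 held 1, a motif present in 42.6% of stretches and in 20 of the 33 family genes. A family gene was counted if any of its listed stretches matched, so counts of genes and shares of stretches are not like measures. ABCF2 also held a CCAAT box (32.0% of stretches), ABCC4 an antioxidant response element core (10.9%) and ABCC2 the letters of a TATA box (10.7%). The ABCC2 match began at position -236 from the annotated start, near the far end of its stretch. No family stretch held the ER stress element (0.074% of stretches), and the E-box (6.34%) was in 7 family genes, none of them among the 6 printed. A match is only a match of letters and shows neither binding nor a cause.

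The transfected gene and the cell type were checked first. The Control, WT and delta72 values of LOXL2 were log2 7.46, 14.05 and 14.06. All 6 measured squamous markers, KRT5 and DSG3 among them, lay above the filter, while all 6 glandular markers and 5 of 6 fibroblast markers lay below it. Of the leukocyte markers 2 of 5 passed, CD68 and CD3E, with the defining PTPRC between 2.83 and 3.08, and of the hepatocyte markers 1 of 4 passed, TTR, with ALB between 3.28 and 3.44. The squamous list differed from Control by a median of -0.29 with WT and of -0.28 with delta72, led by KRT14, a basal keratin at -0.67 and -0.66, and whether this bears on the ABC values was not tested. Array medians were within 0.017 of each other.

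**Figure D1:**
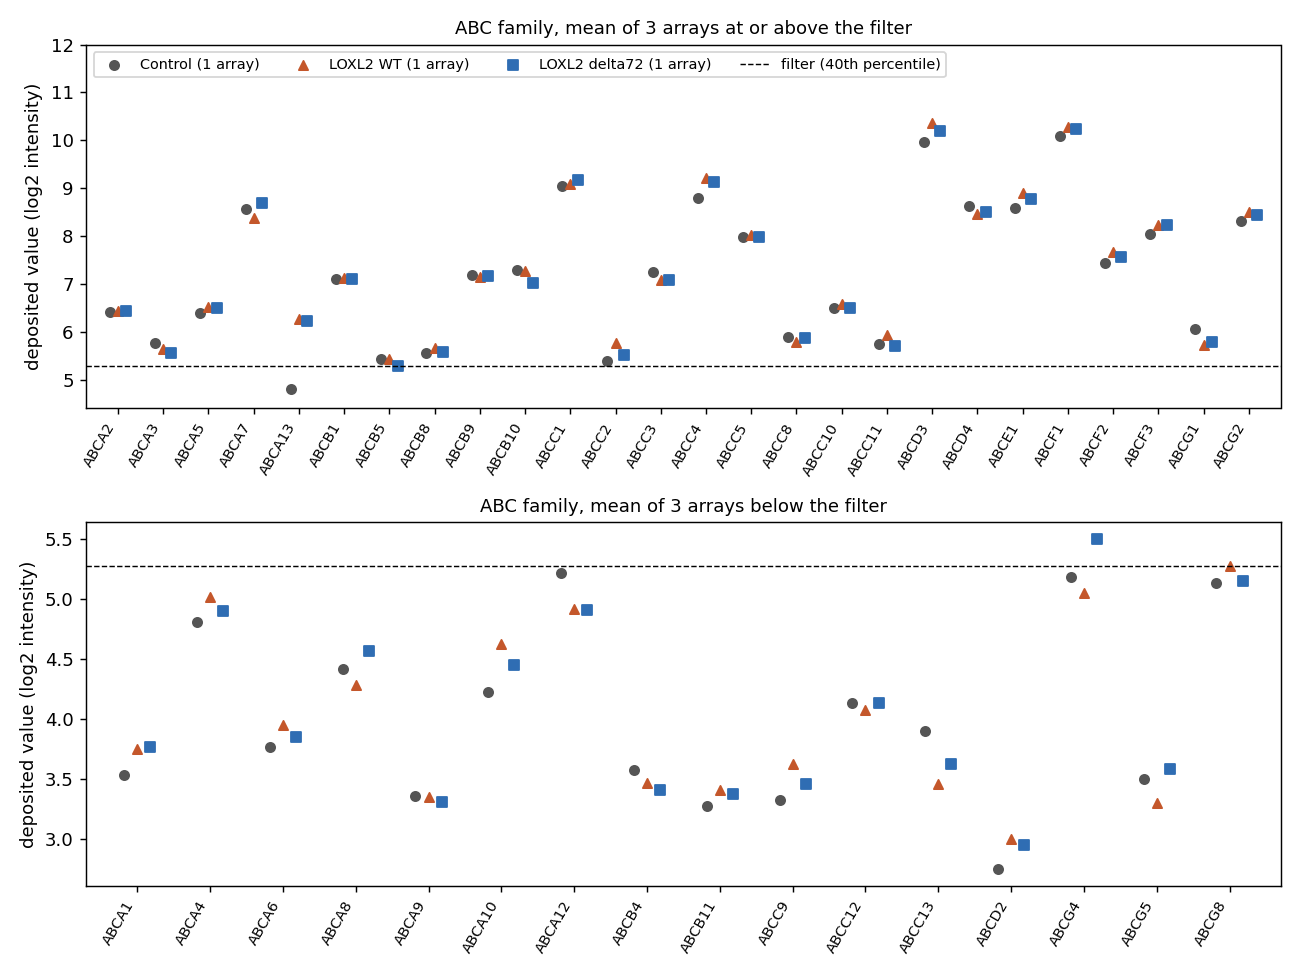
Deposited log2 intensity of the 42 ABC genes on the Control (circle), LOXL2 WT (triangle) and LOXL2 delta72 (square) arrays, 1 array each, with the 26 genes above the filter on top and the 16 below it underneath. The 3 symbols of a gene lie close together except for ABCA13, whose Control value of 4.80 falls below the dashed filter line at 5.27. Values of different genes come from different probe sets and do not rank the genes by amount.

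Counted over the 26 bright members, 1 was at least 1.5-fold higher with LOXL2 WT than Control and 0 were lower, against 1.85% and 0.867% of the 12232 genes above the filter. With delta72 the counts were again 1 and 0, against 1.28% and 0.499%. The member was ABCA13 both times, which passed the filter through the LOXL2 arrays, so these counts are not independent of the filter. Between both LOXL2 forms 0 members were at least 1.5-fold higher and 0 lower, against 0.180% and 0.0409% of genes. At 1.2-fold, 5 members were higher and 1 lower with WT, against 13.7% and 11.4%. With delta72, 2 were higher and 1 lower, against 11.0% and 7.75%. A larger size, midway between no change and 1.5-fold, had been used before 1.2-fold, and both were chosen after seeing the data. At that size 4 members were higher and 1 lower with WT, against 9.92% and 7.12%, since ABCE1 was no longer counted. With delta72 2 were higher and 0 lower, against 7.52% and 4.72%, and ABCB10 was no longer counted. Between both forms 0 were higher and 0 lower, against 1.55% and 0.981%. At 1.5-fold, 1 member more or less moves the family's share past or short of the background. The counts at the smaller sizes are small too, and none of the counts is a result about the family as a group.

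The median difference of the 26 members was 0.069 with WT, against -0.0094 over all genes, and 0.031 with delta72, against 0.00. By sign alone, 17 members were higher and 9 lower with WT, where 48.0% and 51.7% of all genes were. With delta72, 15 were higher, 9 lower and 2 equal to Control, where 49.7% of all genes were higher and 49.8% lower. A shift of the arrays to a common median gave 14 higher and 12 lower with WT and 13 and 13 with delta72, quantile normalization 18 and 8 and 14 and 12, and lowess 18 and 8 and 17 and 9. Under the common median shift the family medians were 0.027 and -0.0013, against -0.051 and -0.033 over all genes, which that shift moves by the same amount as the family. The WT and delta72 differences share the Control array, so their likeness is not an independent repeat.

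**Figure D2:**
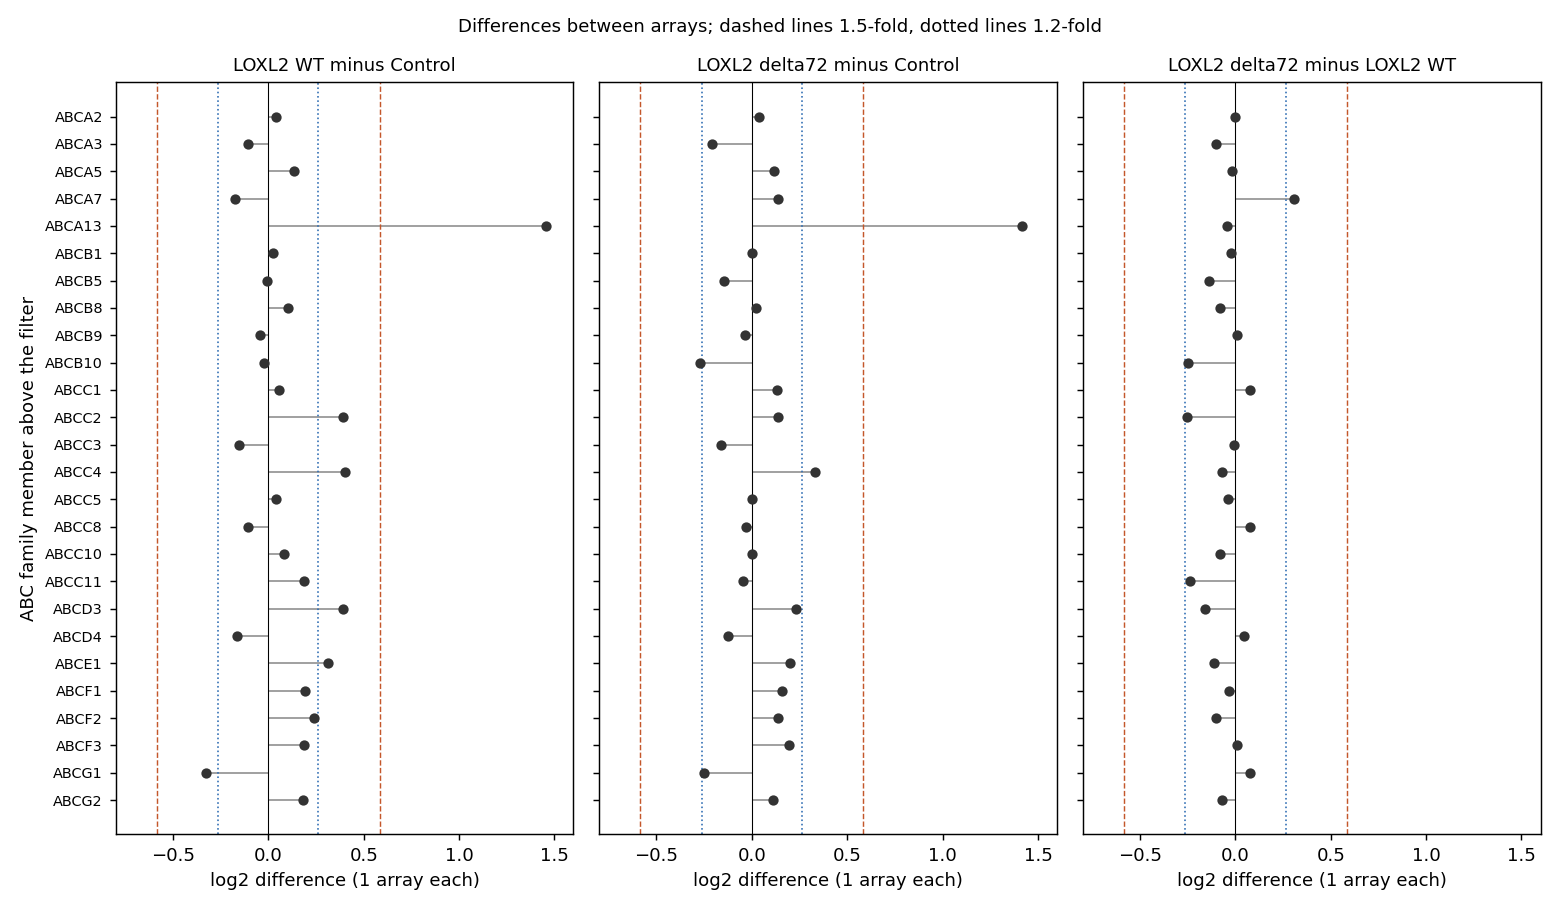
Log2 differences of the 26 ABC genes above the filter in the 3 comparisons between arrays, 1 array each, with dashed lines at 1.5-fold and dotted lines at 1.2-fold. ABCA13 is the point beyond the dashed line in the first and second panels, at 1.46 and 1.41, and the third panel, which sets the forms against each other, has 1 point beyond the dotted lines, ABCA7 at 0.31.

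Among the lipid and sterol transporters of subfamily A, ABCA13 is one of the largest human ABC proteins. The Control array gave log2 4.80, the WT array 6.26 and the delta72 array 6.21, so the differences were 1.46 and 1.41. Both LOXL2 arrays were high and nearly equal, 0.042 apart, and only the Control array was below the filter. The mean of ABCA13 passed the filter through the LOXL2 arrays, so it could enter the bright group only by differing. It had 1 probe set, so no second reading of the gene exists on these arrays. That probe set has the suffix s_at, which Affymetrix gives to probe sets that may match several transcripts.

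The other 4 bright members of the subfamily stayed close to Control. ABCA7, which moves phospholipids, read 8.55, 8.38 and 8.69 on the Control, WT and delta72 arrays. It had the largest difference between both LOXL2 forms among the 26 bright members, 0.31 higher with delta72, but its dimmer probe set gave -0.094, an SD of 0.28 over 2 probe sets. ABCA3, the surfactant lipid transporter of lamellar bodies, read 5.76, 5.65 and 5.55. ABCA5, a lysosomal member, read 6.38, 6.52 and 6.50, and ABCA2, of late endosomes and lysosomes, read 6.40, 6.44 and 6.44.

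In subfamily G, ABCG1, which exports cholesterol to lipoprotein particles, read 6.05, 5.72 and 5.79 on the Control, WT and delta72 arrays. The WT and delta72 arrays were both lower, by 0.33 and 0.25 on the log2 scale, and ABCG1 was the only bright member at least 1.2-fold lower with WT. Only 1 of its 5 probe sets lay above the filter. All 5 were lower with WT and 4 with delta72, with median differences of -0.20 and -0.12. Taking the median level of all 5 on each array before subtraction gave -0.058 with WT and 0.096 with delta72 instead. ABCG2, the breast cancer resistance protein, read 8.32, 8.50 and 8.43. Its second bright probe set moved the other way, from 6.11 to 5.92 and 5.93, which leaves ABCG2 without a direction.

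The genes around sterol transport, a list of 18 that holds the LXR receptors and sterol carriers, had 16 members above the filter. With WT 1 was at least 1.2-fold higher and 5 lower, against 13.7% and 11.4% of all genes. With delta72 the counts were 1 and 3, against 11.0% and 7.75%. At 1.5-fold, 0 were higher and 0 lower on either array, against 1.85% and 0.867% with WT and 1.28% and 0.499% with delta72. SCD, the stearoyl-CoA desaturase, differed by -0.47 and -0.40, and NPC2, which carries cholesterol out of lysosomes, by -0.42 and -0.34. MYLIP, an LXR target that degrades the LDL receptor, differed by 0.36 and 0.38. ABCA1, itself an LXR target, was among the dim genes.

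Of the multidrug and organic anion transporters, ABCC4 (MRP4), which exports cyclic nucleotides and prostaglandins, differed most. From its brightest probe set the Control array gave 8.80, the WT array 9.20 and the delta72 array 9.13. Its other bright probe sets read 5.34, 5.67 and 5.55, and 5.40, 5.75 and 5.64. All 3 were higher on both LOXL2 arrays, by 0.33 to 0.40 with WT (SD 0.037) and by 0.21 to 0.33 with delta72 (SD 0.063). Among all genes above the filter, 93.9% had a lower WT difference than ABCC4.

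ABCC2 (MRP2), which exports bilirubin conjugates into bile, read 5.38, 5.77 and 5.52 from its brighter probe set, 0.39 higher with WT. The other probe set read 5.48, 5.49 and 5.47, so the WT difference rests on a single probe set near the filter. ABCC3 (MRP3) also had probe sets that disagreed, at 7.24, 7.09 and 7.08 for the brighter and 6.19, 6.32 and 6.47 for the dimmer. ABCC11, the transporter behind the earwax trait, read 5.75, 5.94 and 5.70 and was 0.24 lower with delta72 than with WT.

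The remaining C members were nearly level. ABCC1 (MRP1) read 9.04, 9.10 and 9.17, and its second bright probe set read 7.36, 7.42 and 7.45, so both differed by 0.06 with WT and by 0.13 and 0.088 with delta72. ABCC5 (MRP5) read 7.98, 8.03 and 7.98, with 4 bright probe sets between -0.19 and 0.17 with WT. ABCC10 (MRP7) read 6.50, 6.58 and 6.50. ABCC8, the sulphonylurea receptor subunit of potassium channels, read 5.89, 5.78 and 5.86.

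In subfamily B, ABCB1, the P-glycoprotein, read 7.10, 7.13 and 7.10 on the Control, WT and delta72 arrays from its brightest probe set. Its other 3 probe sets lay between 3.36 and 4.05 on all arrays, below the filter, so the probe sets disagree on whether ABCB1 was measured above the filter at all. ABCB9, a lysosomal peptide transporter, read 7.19, 7.15 and 7.15. All 4 of its bright probe sets were lower on both LOXL2 arrays, by 0.043 to 0.29 with WT and by 0.035 to 0.22 with delta72 on the log2 scale. ABCB5 read 5.43, 5.42 and 5.28, just inside the filter.

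Of the mitochondrial members of subfamily B, 2 were bright. ABCB10, which supports haem synthesis, read 7.29, 7.27 and 7.02, so only the delta72 array was low, 0.27 below Control and 0.25 below WT. It had 1 probe set. ABCB8, linked to mitochondrial iron export, read 5.56, 5.66 and 5.58, and its second bright probe set, which read 5.54, 5.24 and 5.47, differed from Control in the opposite direction. Among 13 bright partner genes of mitochondrial iron and haem, 1 was at least 1.5-fold lower with WT, against 0.867% of all genes. It was the iron importer SLC25A37 at -0.63 (SD 0.19 over 5 probe sets). With delta72, 0 were at least 1.5-fold higher and 0 lower, against 1.28% and 0.499%. FDX2, a ferredoxin of iron-sulphur assembly, differed by 0.50 and 0.41, and ALAS1, the first enzyme of haem synthesis, by 0.17 and 0.36.

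The peroxisomal member ABCD3 (PMP70), which brings branched and long fatty acyl compounds into peroxisomes, had 5 bright probe sets. The brightest gave 9.97 with Control, 10.36 with WT and 10.20 with delta72. The next read 8.10, 8.71 and 8.57, and another read 6.61, 7.39 and 7.26. All 5 were higher on both LOXL2 arrays, by 0.34 to 0.78 with WT (SD 0.18) and by 0.17 to 0.64 with delta72 (SD 0.19), and the brightest gave 0.39 and 0.23. The brightest probe set therefore lay in the lower part of the range of its gene.

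ABCD4, which works in lysosomal export of vitamin B12, read 8.62, 8.45 and 8.50, and its 3 probe sets did not share a direction with WT. The 11 bright genes of peroxisome assembly and fatty acid use differed from Control by a median of 0.024 on the WT array and 0.029 on the other. With WT 0 of them were at least 1.2-fold higher and 1 lower, catalase (CAT) at -0.37 (SD 0.036 over 2 probe sets), against 13.7% and 11.4% of all genes, and with delta72 0 were higher and 0 lower, against 11.0% and 7.75%. PEX3, a docking factor for peroxisomal membrane proteins, differed by 0.23 and 0.21, PEX16, another assembly factor, by 0.11 and 0.22, and ACSL4, a fatty acid activating enzyme, by -0.13 and -0.21.

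**Figure D3:**
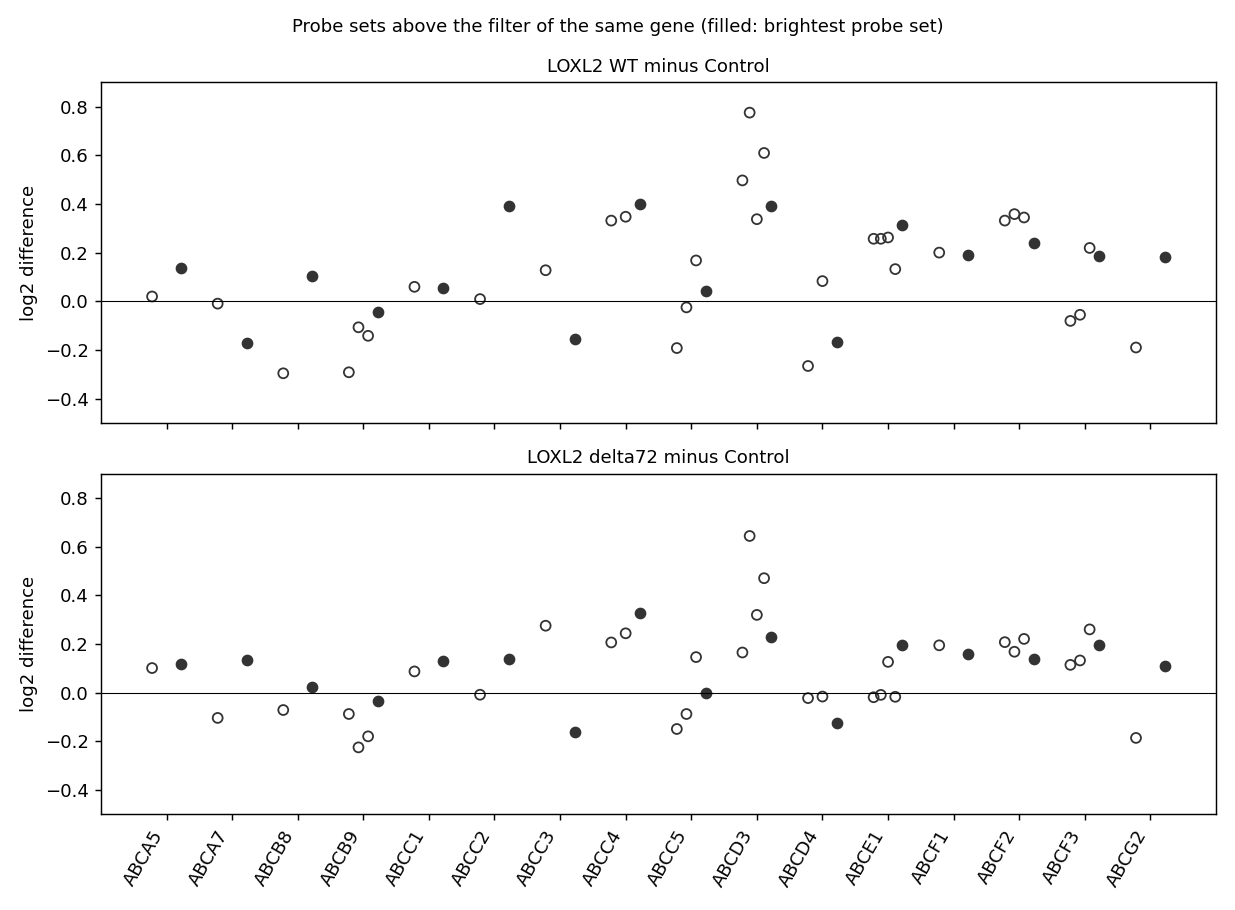
Log2 differences from Control of every probe set above the filter for the 16 ABC genes that had more than 1, with the brightest probe set filled and the others open. ABCA5, ABCC1, ABCC4, ABCD3, ABCF1 and ABCF2 have all points above 0 in both panels and ABCB9 all points below 0. ABCB8, ABCC3, ABCC5 and ABCG2 have points on both sides in each panel.

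The soluble members act on ribosomes: ABCE1 splits ribosomes after termination, and ABCF1 binds the initiation factor eIF2. ABCE1 read 8.58, 8.89 and 8.78 on the Control, WT and delta72 arrays. All 5 of its probe sets were higher with WT, by 0.13 to 0.31 (SD 0.067). With delta72 the brightest was 0.20 higher and another 0.13 higher, but 3 lay between -0.018 and -0.0085, so the delta72 difference of ABCE1 depends on the probe set.

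ABCF1 read 10.08, 10.27 and 10.24, and its second probe set 9.61, 9.81 and 9.80. ABCF2 read 7.43, 7.67 and 7.57, and its 4 probe sets were higher by 0.24 to 0.36 with WT (SD 0.053) and by 0.14 to 0.22 with delta72 (SD 0.038). ABCF3, whose yeast relative acts in sensing of amino acid starvation, read 8.04, 8.22 and 8.23. Its 2 dimmer probe sets were lower with WT, at -0.081 and -0.055, while all 4 were higher with delta72. From the brightest probe sets, the differences of ABCF1, ABCF2 and ABCF3 were smaller than the SD over all genes above the filter, which was 0.26 with WT and 0.23 with delta72, and that of ABCE1 was larger with WT only.

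Their 15 partners in ribosome recycling and initiation were all bright. By sign, 12 were higher and 3 lower on each LOXL2 array, where 48.0% and 49.7% of all genes were higher, with a median of 0.20 with WT and 0.19 with delta72, against -0.0094 and 0.00 over all genes. Under the common median shift, quantile normalization and lowess the WT split stayed 12 to 3 and the delta72 split was 11 to 4. Another setting took the median level over all probe sets of a gene on each array, dim ones included, and then subtracted. With this median over probe sets in place of the brightest, both splits were 11 to 4. The medians were then 0.19 with WT and 0.097 with delta72, the latter inside the middle 50% of all genes, which ends at 0.13. At 1.2-fold, 5 were higher and 0 lower with WT, against 13.7% and 11.4% of all genes, and 3 higher and 0 lower with delta72, against 11.0% and 7.75%. ETF1, the release factor that recognises stop codons, differed by 0.42 and 0.32 (SD 0.10 and 0.047 over 4 probe sets). EIF2S1, the alpha subunit of eIF2, differed by 0.35 and 0.33, and EIF3A by 0.35 and 0.19. ZNF598, a sensor of collided ribosomes, differed by 0.29 and 0.36, whereas EIF2S2, the beta subunit of eIF2, which was picked after its values were seen, differed by -0.14 and -0.19.

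**Figure D4:**
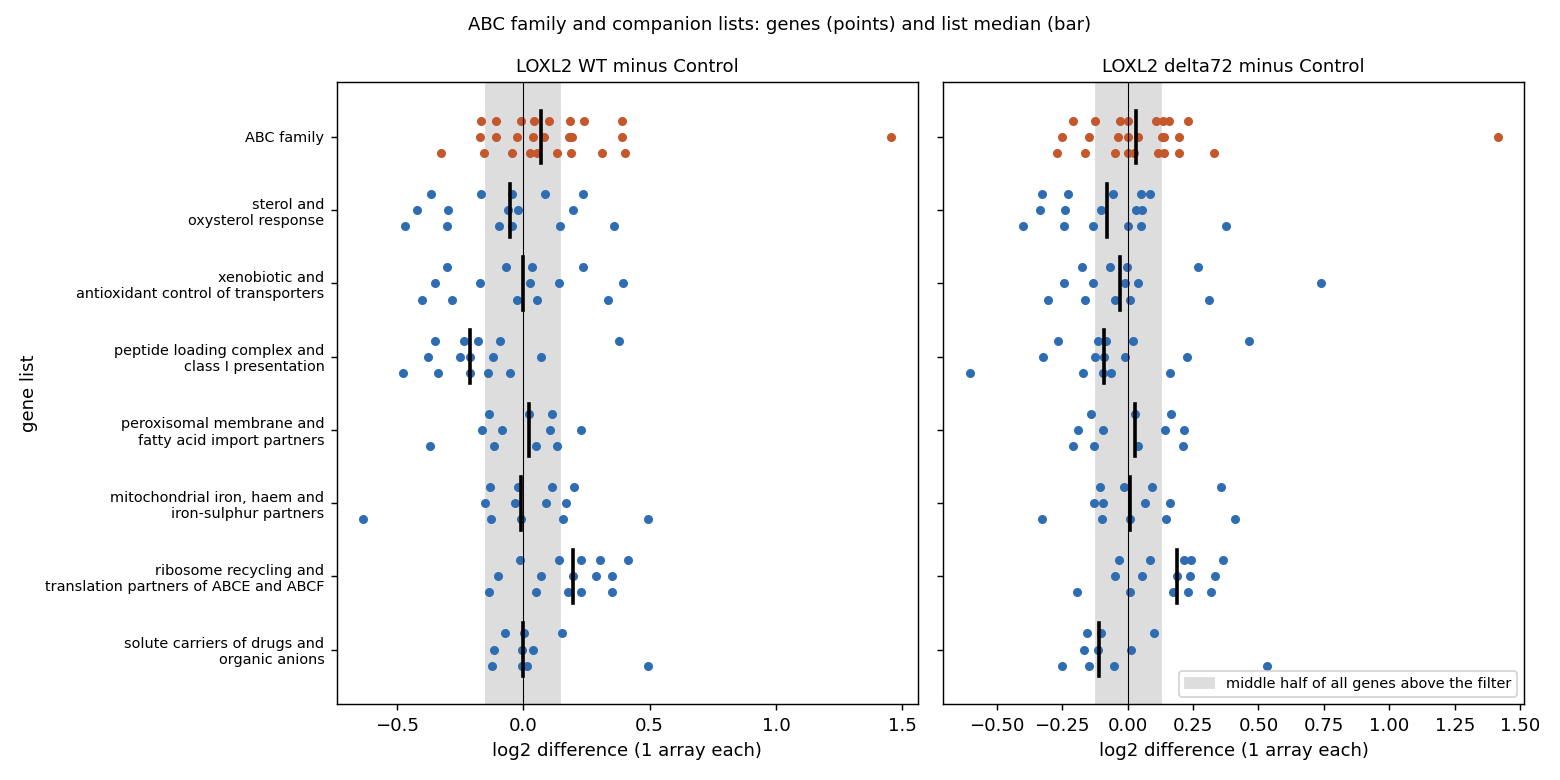
Log2 differences from Control of the bright ABC genes and of the bright genes in 7 lists of partners, 1 array each, with a black bar at each median and a grey band for the middle 50% of all genes above the filter. The median of the ribosome partners lies to the right of the band in both panels, at 0.20 and 0.19 (0.097 with delta72, inside the band, when the median over probe sets is used), and that of the peptide loading list lies to its left with LOXL2 WT, at -0.21 (-0.074, inside the band, with the median over probe sets).

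The peptide transporter genes TAP1 and TAP2 and the chloride channel gene CFTR belong to the family under other symbols. TAP1 read 9.25, 9.11 and 9.19, TAP2 read 7.98, 7.93 and 7.97, and CFTR lay below the filter. The 15 bright genes of peptide loading and class I presentation, with TAP1 and TAP2 among them, had a median of -0.21 with WT and -0.089 with delta72, and 13 and 11 of them were lower, where 51.7% and 49.8% of all genes were. With the median over probe sets in place of the brightest, the WT value was -0.074. ERAP2, a peptide-trimming enzyme, was the 1 member at least 1.5-fold lower with delta72, at -0.60, against 0.499% of all genes. It differed by -0.48 with WT. Between both forms 14 of the 15 were higher with delta72 than with WT, where 50.4% of all genes were, by a median of 0.080, and 11 of 15 with the median over probe sets. CANX, the chaperone calnexin, differed by 0.38 and 0.46. PDIA3, a disulphide isomerase of the loading complex, was 0.61 higher with delta72 than with WT, with an SD of 0.32 over 2 probe sets.

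Genes that control or complement drug transporters were followed in 2 lists. In the list of xenobiotic and antioxidant genes, 7 of 14 bright members were higher with WT and 5 with delta72, where 48.0% and 49.7% of all genes were. CYP1A1, a target of the aryl hydrocarbon receptor, differed by 0.33 with WT and by 0.74 with delta72. With delta72 it was the 1 member at least 1.5-fold higher, against 1.28% of all genes. The receptor gene AHR differed by 0.40 and 0.27, and SLC7A11, the cystine importer, by -0.40 and -0.24. Of 10 bright solute carriers of drugs and organic anions, 5 were lower with WT and 7 with delta72, where 51.7% and 49.8% of all genes were, with medians of -0.00069 and -0.11. Under the common median shift, quantile normalization and lowess 8 of 10 were lower with delta72, and 6 of 10 with the median over probe sets. With WT, 8 of 10 were lower under the common median shift, 6 under quantile normalization, and 5 under lowess and under the median over probe sets. Of these carriers SLC22A4, which moves ergothioneine, was at least 1.2-fold higher, at 0.50 with WT and 0.53 with delta72, where 13.7% and 11.0% of all genes were.

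The 16 dim members had means between 2.90 and 5.24, and their differences from Control ran from -0.44 to 0.40 with WT and from -0.31 to 0.31 with delta72. They included ABCA1, the cholesterol exporter, at 3.53, 3.75 and 3.76. ABCA12, the lipid transporter of keratinocyte granules, lay close to the filter at 5.22, 4.92 and 4.91. Also dim were ABCA4 of the retina, the bile transporters ABCB4 and ABCB11, the channel subunit ABCC9, the pseudogene ABCC13, ABCC12, the peroxisomal ABCD2, and ABCG4, ABCG5 and ABCG8. ABCA6, ABCA8, ABCA9 and ABCA10 were dim as well, while their neighbour on chromosome 17, ABCA5, was bright.

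ABCG4 and ABCG8, with means of 5.24 and 5.18, lay just below the filter, and ABCB5 and ABCC2, with means of 5.38 and 5.56, just above it. ABCG4 was the dim member that reached the filter value on an array, at 5.50 with delta72 against 5.19 on the Control array and 5.05 with WT. The upstream stretches of 21 bright members with a listed promoter had a median G and C content of 65.2%, against 49.8% for 12 dim members and 58.0% for all promoters. No gene was chosen by this content, and it is given as a description.

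Between both LOXL2 forms, a comparison that leaves out the Control array, the 26 bright members ran from -0.25 to 0.31 with a median of -0.041, against 0.0013 over all genes. By sign, 18 were lower with delta72 than with WT, 7 higher and 1 equal, where 49.3% of all genes were lower and 50.4% higher. With the median over probe sets 15 were lower and 11 higher, a more even split. At 1.2-fold 1 member was higher, ABCA7, and 0 were lower, against 3.11% and 2.02% of genes. The lowest were ABCC2, ABCB10 and ABCC11, of which ABCB10 and ABCC11 had 1 bright probe set each, while both bright probe sets of ABCC2 were lower, at -0.25 and -0.017. Probe sets of the same gene differed from each other by an SD of 0.11 in this comparison, pooled over 16 members, and 19 of the 26 differences were smaller than this. This SD holds no biological or hybridisation error.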

How the data were processed

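Gene expression was measured on 3 Affymetrix arrays from KYSE150 cells, 1 array per condition. Labelling started from 100 ng of total RNA, per the labels' protocols. Partek and Affymetrix Expression Console are the tools in the submitters' processing notes. How they normalized and corrected background is not given in the sources used here. For each array the authors deposited 1 value per probe set and array, taken as log2 intensity because all 49395 probe sets lay between 2.07 and 14.56. Of 49293 non-control probe sets, 44988 had 1 gene symbol, 1832 several and 2473 none listed. Among the 1832 were 6 that name a family symbol together with another gene, and these were left out, so ABCB6 was not analysed here. All 42 members matched RefSeq by Entrez identifier. Genes were read from the brightest probe set and filtered at the 40th percentile. Differences were subtractions of log2 values, and SDs are over probe sets above the filter. With 1 array a condition no p-value was computed, and the number of arrays limits the precision. Counting was tested on simulated data. Every family member may be named, with partner genes at least 1.5-fold different or up to 4 with the largest differences. Partner genes shown beyond these, and TAP1, TAP2 and CFTR, were chosen by role. The members and lists were chosen with earlier results of these data known. The 1.2-fold count was added after seeing the data. It replaced a count midway between no change and 1.5-fold, whose results had been seen, for a reason of number format unrelated to them, and both are reported. Python 3.11.15, pandas 2.3.3 and statsmodels 0.14.6 (lowess) were used.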

Additional observations from a re-analysis of the deposited data

How the results depend on the processing

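The alternatives were a common median shift, quantile normalization, lowess, the median over probe sets, no filter and a 60th percentile filter (log2 6.65). ABCA13 was the member past 1.5-fold against Control under all of these but the last, which removes it and leaves 0 members with WT and 0 with delta72. Its difference ran from 1.41 to 1.53 with WT and from 1.38 to 1.46 with delta72 over the scalings. At 1.2-fold, a size added after seeing the data, the counts were 6 with WT, 3 with delta72 and 1 between both forms. At the size used before it, midway between no change and 1.5-fold, they were 5, 2 and 0. The shares of all genes at both sizes are given above by direction. The family median with delta72 changed sign under the common median shift, to -0.0013, where the median of all genes was -0.033, moved by the same amount. Without ABCA13, also added later, the medians were 0.056, 0.024 and -0.041. The median over probe sets was the median level of a gene's probe sets on each array, dim ones included, subtracted afterwards. It moved 23 of 78 differences of single members by more than the pooled probe set SD, and the scalings moved 0. It can differ from the median of the probe set differences: for ABCC8 with WT it gave 0.21, against -0.024. No paired analysis was possible because each condition has 1 array, and for the same reason no array could be left out. Signal near the filter limits ABCC2, ABCB5 and ABCA13.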
